A study of Mus musculus with 2 samples.

Results

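A set of 9 genes that regulate or mark the red blood cell lineage was followed through the accessible chromatin of mouse spleen. The members were fixed by name: the transcription factors Gata1, Klf1 and Tal1, the receptors Epor and Tfrc, the haem enzyme Alas2 and the membrane genes Slc4a1, Rhag and Ermap. All 9 were found among the 21924 protein-coding genes of GENCODE vM21 (genome build mm10), and every peak that touched a gene body or the 20 kb on either side of it was taken. A peak was called a promoter peak when it came within 1 kb of any annotated transcription start site (TSS) of the gene, and a gene body peak when it lay elsewhere in the gene. Other peaks of the window were flanking peaks, which were split by whether they fell within 1 kb of a TSS of another gene. Distances are given from the TSS of the main transcript to the peak summit, with positive values downstream.

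The peaks came from scFFPE-ATAC, a single-cell assay in which the Tn5 transposase inserts adapters into open chromatin of nuclei from formalin-fixed, paraffin-embedded (FFPE) tissue. There were 2 libraries, both from spleens that the study took from C57BL/6J mice aged 8 weeks, with no treatment named. In the library without gradient centrifugation, the nuclei had not been cleaned of debris on a density gradient, and in the 50 µL library tagmentation was run in a 50 µL reaction system. The labels do not say whether the nuclei of the 50 µL library passed a gradient, in which volume the other library was tagmented, or which animals or sex gave each library. With 1 library a group, differences between the libraries have no replicate check and no p-values are given, and the handling of the nuclei, the reaction volume and the sequencing depth cannot be told apart. Peaks had been called on each library with all its cells together, so a weak peak may stand for few cells with open chromatin or for a less open site in many, and these cannot be told apart either. The list without gradient centrifugation held 25343 peaks and the 50 µL list 89382. The lists hold no read counts, so depth is unknown. For mouse spleen nuclei not purified on a gradient, the study reports weaker enrichment at TSSs, more duplicates and a smaller share of reads in peaks than for purified nuclei. It adds that cell types were not clearly separated without the gradient. For its 50 µL run, it describes a quality comparable to that of its larger reaction volume. How these differences bear on the peaks called here was not tested. Each peak has a fold enrichment over local background, with a median over all peaks of 5.24 without gradient centrifugation and 3.29 in the 50 µL library. Values of the 2 lists are thus not on a common scale, and where they stand side by side they are a description. Each peak also has a rank by significance, given as well as a percentile in which the most significant peak of a list stands at 100.

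GATA1, TAL1 and KLF1 are transcription factors that switch on the genes of the maturing red cell. GATA1 binds a short word around GATA, TAL1 joins it on composites of part of an E-box and a GATA word, and KLF1 binds CACCC-type words. The erythropoietin receptor encoded by Epor keeps red cell precursors alive through JAK2 and STAT5, the transferrin receptor encoded by Tfrc brings in iron, and Alas2 encodes the enzyme that starts haem synthesis in these cells. Slc4a1 encodes band 3, the anion exchanger that anchors the membrane skeleton, Rhag encodes the glycoprotein that carries the Rh complex, and Ermap encodes a membrane protein of the immunoglobulin superfamily known as the Scianna blood group antigen. In the mouse, the red pulp of the adult spleen is a site of red cell formation beside the bone marrow.

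Markers of spleen cell types were counted beside all protein-coding genes, of which 43.6% had a promoter peak without gradient centrifugation and 56.5% in the 50 µL library. Of 6 B cell markers, 3 had a promoter peak without gradient centrifugation and 6 in the 50 µL library. The counts were 2 and 4 of 6 for T cell markers and 1 and 5 of 6 for red pulp macrophage markers. Of 7 other red cell markers counted here, 4 had a promoter peak in the 50 µL library (57.1%, close to the share of all genes), namely Hemgn, Epb42, Kel and Hbb-bt, and these 4 had none without gradient centrifugation. The lists of red cell markers, of haem synthesis and of the red cell membrane leave out genes that are not reported here, some with and some without promoter peaks, so their counts cover the remaining genes only. The globin genes Hba-a1, Hba-a2 and Hbb-bs had none in either list. None of the 4 red cell promoters of the 50 µL library was among its 25343 most significant peaks. Several of the 9 genes are also used outside the red cell: GATA1 and TAL1 act in megakaryocytes and mast cells, and Tfrc is expressed by dividing cells of many kinds. Of 10 megakaryocyte markers, only Itga2b had a promoter peak in either list, and 0 of 6 mast cell markers had one. All 10 megakaryocyte and 5 of the 6 mast cell promoters lie in the 5 deciles of promoters poorest in CpG. In these deciles, between 3.97% and 41% of genes had a promoter peak without gradient centrifugation and between 8.49% and 58.1% in the 50 µL library. All 7 red cell markers lie there too, in deciles 1 to 3. The shares in those were between 3.97% and 13.7% without gradient centrifugation and between 8.49% and 27.8% in the 50 µL library. The share of any cell type in these libraries was not tested.

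The DNA under the peaks is shown for the sites on which the description below turns. Each line holds the 200 bp around a summit, read from GRCm38 (mm10) on the strand of the gene, with any bases of an annotated untranslated region left off. Capitals mark GATA words (AGATAA, and the same word with T in place of its first base, with G in place of its last, or with both), E-boxes (CAGNTG), KLF words (CCNCNCCC) and a core of the CTCF motif (AGGGGGCGC), each on either strand. The first 6 are the most significant promoter peaks of Slc4a1, Epor, Tfrc, Gata1 and Ermap, each in the library named, and the Alas2 intron 1 peak, which is shown for its GATA words.
Slc4a1 promoter, 50 µL library, chr11:102365281-102365406, minus strand: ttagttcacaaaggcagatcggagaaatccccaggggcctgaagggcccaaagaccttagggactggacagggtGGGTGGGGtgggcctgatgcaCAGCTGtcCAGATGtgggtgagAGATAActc
Epor intron 1, 50 µL library, chr9:21962586-21962785, minus strand: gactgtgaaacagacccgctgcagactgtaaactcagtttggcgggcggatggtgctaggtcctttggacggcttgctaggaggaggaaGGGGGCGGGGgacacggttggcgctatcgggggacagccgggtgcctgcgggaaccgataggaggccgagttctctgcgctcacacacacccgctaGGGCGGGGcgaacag
Tfrc promoter, without gradient centrifugation, chr16:32608766-32608919, plus strand: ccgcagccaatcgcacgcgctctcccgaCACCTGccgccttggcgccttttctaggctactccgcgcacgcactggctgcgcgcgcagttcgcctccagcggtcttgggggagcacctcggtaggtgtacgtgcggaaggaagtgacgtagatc
Gata1 intron 1, 50 µL library, chrX:7964216-7964415, minus strand: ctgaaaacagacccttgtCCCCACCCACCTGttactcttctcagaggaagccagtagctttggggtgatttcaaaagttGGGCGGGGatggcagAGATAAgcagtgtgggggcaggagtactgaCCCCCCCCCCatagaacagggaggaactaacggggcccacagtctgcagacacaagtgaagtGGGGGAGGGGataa
Ermap intron 2, 50 µL library, chr4:119188540-119188701, minus strand: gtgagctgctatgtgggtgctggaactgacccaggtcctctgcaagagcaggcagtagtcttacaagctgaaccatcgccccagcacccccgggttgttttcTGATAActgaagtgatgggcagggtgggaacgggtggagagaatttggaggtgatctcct
Alas2 intron 1, 50 µL library, chrX:150551084-150551283, plus strand: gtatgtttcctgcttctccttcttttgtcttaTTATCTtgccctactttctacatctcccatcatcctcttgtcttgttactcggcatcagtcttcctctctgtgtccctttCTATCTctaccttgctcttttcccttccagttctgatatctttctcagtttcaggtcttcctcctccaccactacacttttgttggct
The next 5 are peaks away from promoters: a Tal1 upstream site and 4 sites of Klf1, Tfrc and Ermap that were present in both libraries. The Tal1 site is the 1 peak of the 9 windows with a GATA and E-box composite in the 200 bp around its summit. The composite lies near the edge of these 200 bp.
Tal1 upstream, 50 µL library, chr4:115048355-115048554, plus strand: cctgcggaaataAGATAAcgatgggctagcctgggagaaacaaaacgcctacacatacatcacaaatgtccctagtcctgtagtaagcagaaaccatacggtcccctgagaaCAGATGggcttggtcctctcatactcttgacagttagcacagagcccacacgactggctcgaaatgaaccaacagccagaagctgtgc
Klf1 exon 2, without gradient centrifugation, chr8:84903120-84903319, plus strand: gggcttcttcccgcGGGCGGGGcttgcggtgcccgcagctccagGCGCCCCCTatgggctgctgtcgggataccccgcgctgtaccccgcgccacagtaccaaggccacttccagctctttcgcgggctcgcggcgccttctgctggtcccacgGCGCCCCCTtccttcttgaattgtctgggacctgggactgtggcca
Tfrc downstream, without gradient centrifugation, chr16:32638641-32638840, plus strand: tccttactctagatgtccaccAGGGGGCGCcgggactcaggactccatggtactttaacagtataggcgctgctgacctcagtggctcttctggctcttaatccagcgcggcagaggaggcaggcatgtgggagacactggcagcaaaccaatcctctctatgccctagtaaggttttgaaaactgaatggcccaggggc
Tfrc downstream within Tnk2, without gradient centrifugation, chr16:32651221-32651420, plus strand: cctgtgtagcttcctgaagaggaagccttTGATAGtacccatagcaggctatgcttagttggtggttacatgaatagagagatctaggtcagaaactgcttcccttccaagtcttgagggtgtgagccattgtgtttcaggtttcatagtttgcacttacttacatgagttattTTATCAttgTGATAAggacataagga
Ermap downstream, without gradient centrifugation, chr4:119167807-119168006, minus strand: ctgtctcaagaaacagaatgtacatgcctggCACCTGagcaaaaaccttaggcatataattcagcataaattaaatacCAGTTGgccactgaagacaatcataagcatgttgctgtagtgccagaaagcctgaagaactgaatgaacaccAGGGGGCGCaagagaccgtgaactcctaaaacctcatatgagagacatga

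Peaks were present in the windows of all 9 genes in the 50 µL library and of 6 without gradient centrifugation. The 50 µL list had 47 peaks in the 9 windows, of which 9 were at promoters of the members, 8 elsewhere in their gene bodies, 18 in flanks at promoters of other genes and 12 in flanks away from promoters. The list without gradient centrifugation had 19, of which 1, 2, 12 and 4 lay in these places. Thus 3 of these 19 peaks belonged to a member itself (Klf1, Tfrc and Ermap), and the windows of Tal1, Slc4a1 and Rhag held no peak. For comparison, the median protein-coding gene had 1 peak in a window drawn in the same way without gradient centrifugation and 4 in the 50 µL library. Tfrc had the fullest window in both, with 5 and 10 peaks, and more peaks were found around 4.65% and 13.8% of all protein-coding genes.

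**Figure D1:**
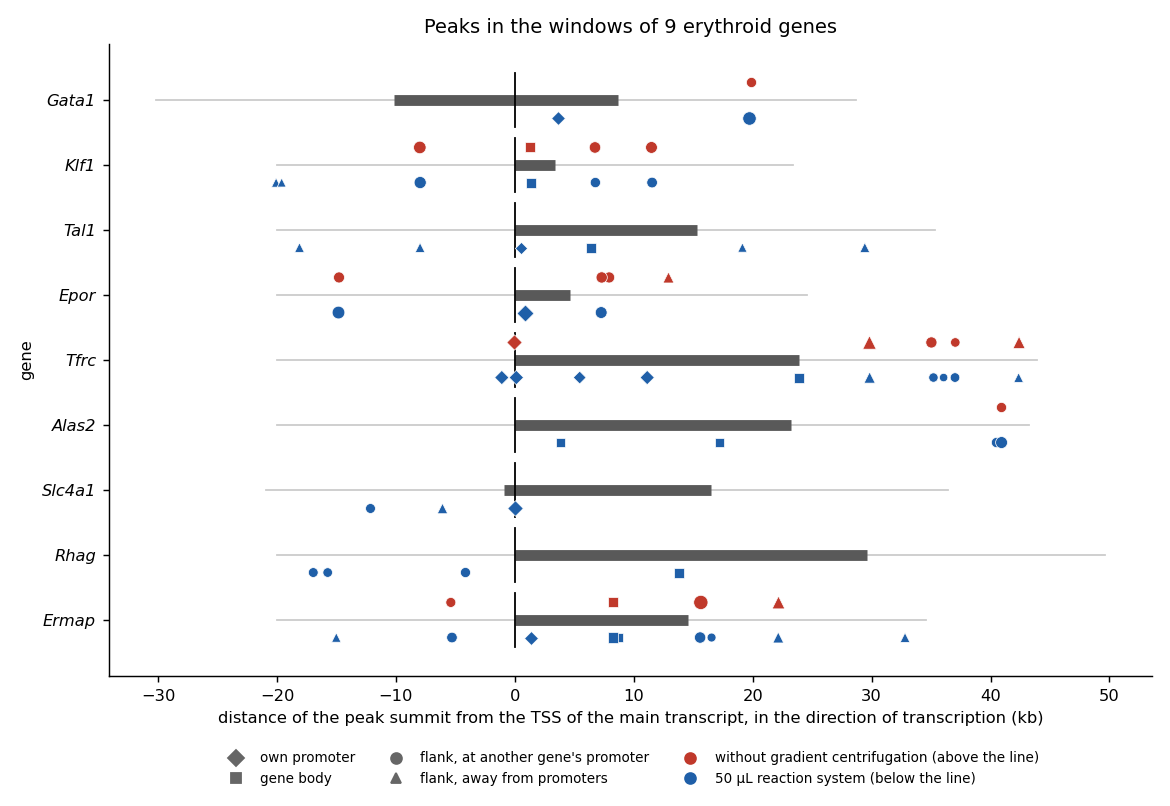
Peaks in the windows of the 9 genes by distance of the summit from the TSS of the main transcript (x axis, kb; y axis, genes). Red marks above each line are peaks without gradient centrifugation and blue marks below it are 50 µL peaks, their shape gives the place of the peak, their area grows with fold enrichment, dark bars are gene bodies and thin lines the windows. Blue marks appear in all 9 windows and red marks in 6, and most red marks are circles, which stand for promoters of other genes.

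Promoter peaks were counted for the 9 genes beside all protein-coding genes. Without gradient centrifugation, 1 of the 9 genes (Tfrc) had a promoter peak (11.1%, exact binomial 95% interval 0.281 to 48.2%), against 43.6% of all protein-coding genes, a share inside the interval. In the 50 µL library 6 of 9 had one (66.7%, interval 29.9 to 92.5%), namely Gata1, Tal1, Epor, Tfrc, Slc4a1 and Ermap, against 56.5%. When the 50 µL list was shortened to its 25343 most significant peaks, Epor, Tfrc and Slc4a1 remained, which is 3 of 9 (33.3%) against 45.2%. In 4 of these 6 genes the 50 µL peak was near a TSS but did not cover that of the main transcript. A peak covered the TSS base of the main transcript in Tfrc alone without gradient centrifugation (background 28.8%) and in Tfrc and Slc4a1 in the 50 µL library (background 43.3%).

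Gene bodies and flanks were counted in the same way. A peak inside the gene but away from its promoters was present in Klf1 and Ermap without gradient centrifugation, which is 2 of 9 (22.2%) against 20.4% of protein-coding genes. In the 50 µL library it was present in Klf1, Tal1, Tfrc, Rhag, Alas2 and Ermap, which is 6 of 9 (66.7%, interval 29.9 to 92.5%) against 44%. A flanking peak away from all promoters was present for Epor, Tfrc and Ermap without gradient centrifugation (3 of 9, background 31%) and for Klf1, Tal1, Tfrc, Slc4a1 and Ermap in the 50 µL library (5 of 9, background 62.3%). The intervals of all these shares hold the background share. These intervals cover counting error over 9 genes only.

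Gata1, the X-linked master regulator of red cell and megakaryocyte genes (ENSMUSG00000031162.14, chromosome X from 7959260 to 7978071, minus strand), had its own peak in the 50 µL library only. The peak lay in intron 1 (7963788 to 7964434), 3594 bp downstream of the main TSS and 150 bp from the TSS of a short internal transcript, and was a promoter peak on account of that internal TSS. It had a fold enrichment of 3.40 and rank 63058, which puts it at percentile 29.5 of its list. The 200 bp around its summit held a GATA word, an E-box and 7 overlapping or separate KLF words, of which the run of C shown above gives several. The main TSS, which starts the transcript with 6 exons, was not covered by a peak in either library. The strongest peak of the Gata1 window belonged to Hdac6, a neighbouring histone deacetylase gene. At the Hdac6 promoter the 50 µL peak had a fold enrichment of 8.67 and rank 79, and the peak without gradient centrifugation 3.99 and rank 24718.

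Klf1, the CACCC-binding activator of adult β-globin (ENSMUSG00000054191.8, chromosome 8 from 84901928 to 84905291, plus strand), had a peak in exon 2 in both libraries. Without gradient centrifugation it ran from 84902967 to 84903362 with a fold enrichment of 4.39 (rank 22018), and in the 50 µL library from 84903186 to 84903730 with 3.05 (rank 38115). The summits were 102 bp apart, at 1292 and 1394 bp from the TSS. The peak thus lay over the coding exon, while the promoter itself held no peak in either list. The 200 bp around its summit had a GC content of 69.5% without gradient centrifugation and included the CTCF core at 2 places. The other peaks of this gene-dense window were at promoters of Gcdh, a mitochondrial dehydrogenase gene, and of Dnase2a, the nuclease with which macrophages digest the nuclei expelled by red cell precursors. Gcdh had fold enrichments of 7.25 without gradient centrifugation and 6.60 in the 50 µL library. The 2 Dnase2a peaks had 5.67 and 6.12 in the former and 4.09 and 4.54 in the latter. In the 50 µL list alone, 2 weak peaks lay inside Syce2 close to 20 kb upstream (fold enrichments 2.81 and 2.47).

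Tal1, the bHLH partner of GATA1 (ENSMUSG00000028717.12, chromosome 4 from 115056426 to 115071755, plus strand), had 6 peaks in the 50 µL library and none without gradient centrifugation. All 6 were weak, with fold enrichments from 2.25 to 3.57 and percentiles from 4.87 to 36.3. The promoter peak (115056839 to 115057054) was in intron 1, 489 bp from the TSS, with a fold enrichment of 2.25 and 2 KLF words. Another peak lay in intron 2 at 6426 bp with 3.04. The other 4 were in the flanks and away from any promoter. Upstream, a peak at -18111 bp lay inside the neighbouring gene Stil with 3.22, and a peak at -7971 bp had 3.31. The latter holds AGATAA with CTG on the spacing of the composite, and a full E-box further on. Downstream, peaks lay at 19138 bp with 2.83 and at 29429 bp with 3.57. A wider window of 50 kb added 5 peaks in the 50 µL list, 3 upstream and 2 downstream, of which the downstream ones lay at 39.4 and 40.3 kb, with fold enrichments of 2.97 and 2.67. The mouse gene is known for enhancers on its downstream side, of which the nearer is active in blood stem cells and endothelium and the farther in red cell precursors, and whether these peaks are those elements was not tested.

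**Figure D2:**
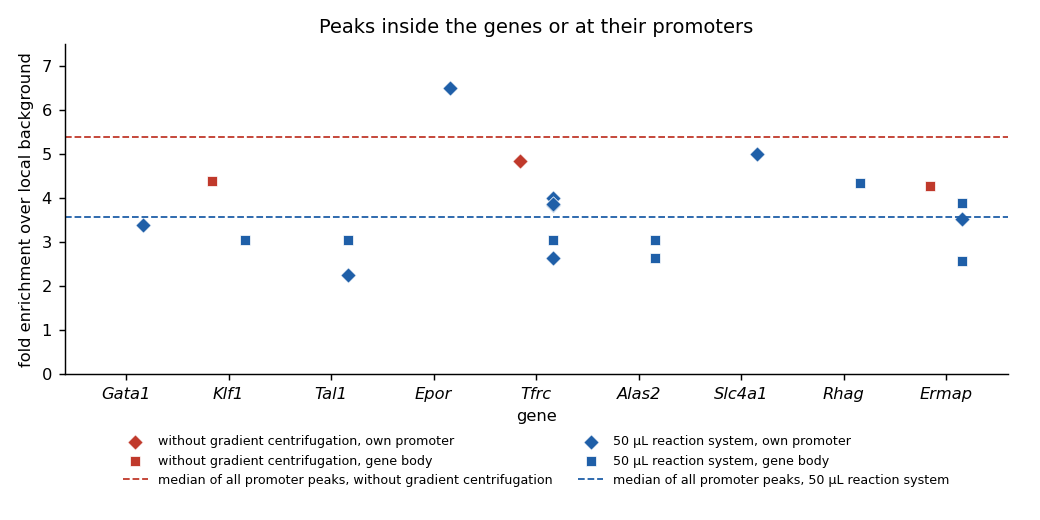
Fold enrichment over local background (y axis) of every peak at a promoter (diamonds) or elsewhere in the body (squares) of the 9 genes (x axis). Red marks are peaks without gradient centrifugation, blue marks are 50 µL peaks, and dashed lines are the medians of all promoter peaks of each list (5.38 and 3.57). Epor stands highest at 6.49, and the 3 red marks lie below the red line.

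Epor, the receptor of erythropoietin (ENSMUSG00000006235.6, chromosome 9 from 21958897 to 21963506, minus strand), had the most significant own peak of the 9 genes. It was in intron 1 of the 50 µL library (21962453 to 21962938), 820 bp downstream of the main TSS and 122 bp from a second annotated TSS, with a fold enrichment of 6.49 and rank 7206. No peak overlapped it without gradient centrifugation, although 77.1% of the 50 µL peaks of similar rank (500 on either side) had a counterpart there. The sequence at its summit holds 3 KLF words in GC-rich stretches and no GATA word. The library without gradient centrifugation instead had a peak of its own 12889 bp downstream (21950514 to 21950716, fold enrichment 4.98), the only peak among its 19 with no 50 µL counterpart. Neighbouring promoters had peaks in both libraries. At Swsap1, a recombination gene that starts close to the end of Epor, fold enrichments were 5.12 and 5.38 for 2 peaks without gradient centrifugation and 6.18 for the single 50 µL peak. At Rgl3, a Ral exchange factor gene upstream, they were 5.05 and 7.49.

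Tfrc, the transferrin receptor (ENSMUSG00000022797.16, chromosome 16 from 32608920 to 32632794, plus strand), was the only member with a promoter peak in both libraries. Without gradient centrifugation the peak ran from 32608752 to 32609034 with a fold enrichment of 4.84 (rank 11913), and in the 50 µL library from 32608685 to 32609556 with 4.01 (rank 9574). Both covered the TSS. The 50 µL library had 3 more peaks that counted as promoter peaks. That at -1097 bp (fold enrichment 3.85, rank 12531) had no counterpart, though 64.2% of peaks of similar rank had, and repeats made up 99.5% of the 200 bp at its summit. Those at 5451 and 11130 bp in introns 2 and 9 (2.64 and 3.86) were near TSSs of short internal transcripts. A peak over the end of the gene, at 23884 bp, had 3.06.

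Downstream of Tfrc, both libraries shared 2 peaks away from promoters. The nearer, at 29.8 kb, had a fold enrichment of 8.76 and rank 1528 without gradient centrifugation and 5.25 and rank 10623 in the 50 µL library, with summits 13 bp apart, and its sequence holds the CTCF core near the start of the window shown above. It was thus the most significant peak of the Tfrc window without gradient centrifugation, ahead of the promoter. The farther, at 42.4 kb inside Tnk2, had 6.80 (rank 3142) and 3.23 (rank 25948), with 3 GATA words within 100 bp of the summit without gradient centrifugation and 1 around the 50 µL summit 39 bp away. Tnk2 encodes a tyrosine kinase. Its promoters had 2 peaks without gradient centrifugation (5.25 and 3.12) and 3 in the 50 µL library (2.97, 1.95 and 3.24).

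Alas2, the X-linked first enzyme of red cell haem synthesis (ENSMUSG00000025270.13, chromosome X from 150547375 to 150570638, plus strand), had 2 weak gene body peaks in the 50 µL library and none of its own without gradient centrifugation. The peak in intron 1 (150550993 to 150551260) was 3809 bp from the TSS with a fold enrichment of 2.64 and rank 86555, and the 200 bp at its summit held 2 GATA words. The peak in intron 8 (150564368 to 150564754) was 17188 bp from the TSS with 3.06 and rank 75297, and held none. Introns 1 and 8 of the human gene are known to carry enhancers bound by GATA1, and whether the mouse peaks match these was not tested. The gene lies within the annotated span of Apex2, a DNA repair gene on the opposite strand, so the peaks lie in both genes. The promoter that Apex2 shares with Pfkfb1 had fold enrichments of 3.99 (rank 24725) without gradient centrifugation and 6.31 (rank 9180) in the 50 µL library, where a second peak beside it had 3.98.

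Slc4a1, the band 3 gene (ENSMUSG00000006574.15, chromosome 11 from 102348824 to 102366203, minus strand), had a peak on its TSS in the 50 µL library and nothing within 20 kb without gradient centrifugation. The peak (102365187 to 102365477) had its summit 27 bp upstream of the main TSS, a fold enrichment of 5.01 and rank 23907. Of 50 µL peaks of similar rank, 41% had a counterpart in the other list. Upstream of the TSS, the sequence shown above carries a KLF word, 2 E-boxes and the GATA word AGATAA within a short stretch. The 50 µL list had 2 further peaks upstream. That at -6101 bp had 4.25, and repeats made up 86.5% of the bases at its summit. That at -12173 bp had 3.57 and lay at the promoter of Bloodlinc, a long non-coding RNA that is known to be transcribed from an enhancer region of Slc4a1 in red cell precursors.

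Rhag, the Rh-associated glycoprotein gene (ENSMUSG00000023926.8, chromosome 17 from 40811126 to 40840754, plus strand), had no peak without gradient centrifugation and 4 in the 50 µL library. Its own peak was in intron 1 (40824784 to 40825020), 13771 bp from the TSS, with a fold enrichment of 4.34 and rank 37428. This sequence is AT-rich, with a GC content of 31%, and contains a KLF word but no GATA word at the summit. The other 3 peaks lay at annotated TSSs of Crisp2, a gene of sperm, with 3.49, 3.23 and 3.91.

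Ermap (ENSMUSG00000028644.16, chromosome 4 from 119175457 to 119190011, minus strand) had 4 peaks without gradient centrifugation and 9 in the 50 µL library. A peak in intron 8 was present in both, with a fold enrichment of 4.28 (rank 20774) without gradient centrifugation and 3.89 (rank 22642) in the 50 µL library, and summits 48 bp apart. The promoter peak was present in the 50 µL library only (119188493 to 119188852, fold enrichment 3.53). It lay in intron 2, at 1371 bp from the main TSS and 107 bp from an internal one, with a GATA word and with repeats over 42.5% of the 200 bp. The other gene body peak, in intron 9, had 2.58. The main TSS carried no peak. Downstream, at 22104 bp without gradient centrifugation and 22151 bp in the 50 µL library, both libraries had a peak away from promoters with fold enrichments of 7.57 (rank 3087) and 4.83 (rank 13979), whose sequence holds the CTCF core. The 50 µL list added flanking peaks at 32812 bp (3.32) and at -15014 bp (2.95, inside AU022252). The promoters of the neighbours Zfp691, a zinc finger gene, and Svbp, which encodes a tubulin carboxypeptidase cofactor, had peaks in both. Svbp had fold enrichments of 3.73 and 4.45. Zfp691 had 10.1 without gradient centrifugation, where it ranked 49, and 5.51 in the 50 µL library.

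Peaks in different places had different ranks, given here as a description. Peaks at promoters of other genes had a median percentile of 58 without gradient centrifugation and 81.9 in the 50 µL library. Peaks in the bodies of the 9 genes had 15.6 over 2 peaks and 29.9 over 8. The same median was not taken over the gene body peaks of all genes. The members' own promoter peaks stood at a median of 68.5 in the 50 µL list and at 53 for the single one without gradient centrifugation. Flanking peaks away from promoters had 87.7 over 4 peaks and 35 over 12. In 5 of the 6 windows with a peak without gradient centrifugation, and in 5 of 9 windows in the 50 µL library, the most significant peak was a promoter of a neighbour. Of the 17 own peaks of the 50 µL library, 5 were in its equally long list, and their fold enrichments ran from 2.25 to 6.49 with a median of 3.40.

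**Figure D3:**
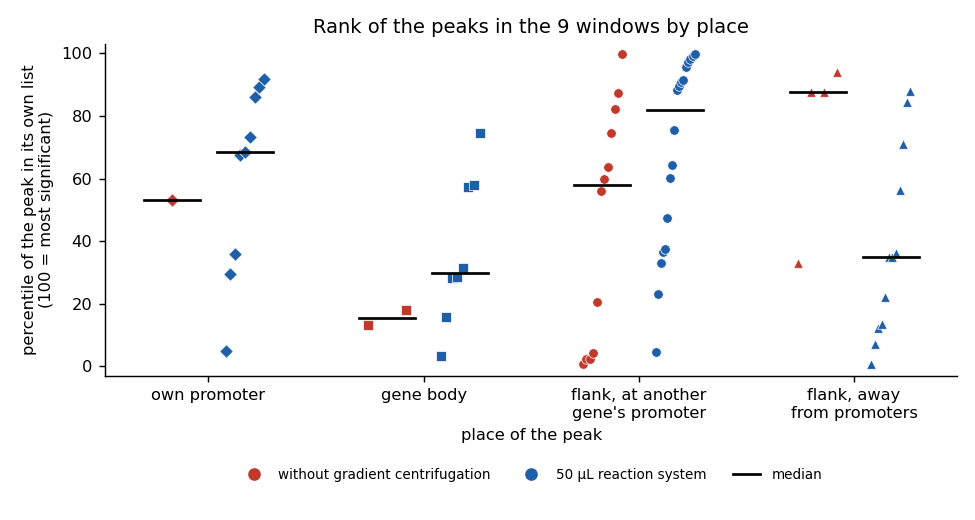
Percentile of each peak of the 9 windows within its own list (y axis, 100 is the most significant) by place of the peak (x axis), without gradient centrifugation in red and in the 50 µL library in blue, with medians as black bars. Gene body peaks of the 9 genes have medians of 15.6 (2 peaks) and 29.9 (8 peaks). Peaks at promoters of other genes reach close to 100 in both lists.

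Most peaks of the 9 windows without gradient centrifugation touched a peak of the 50 µL list. Of 19, 18 overlapped a 50 µL peak by at least 1 bp (94.7%, interval 74 to 99.9%), which sets them beside 95.3% of all peaks of that list. With a reciprocal overlap of at least 50%, the share was 42.1% (8 of 19), and with a fold enrichment of at least 4 in both lists it was 66.7%. The share over all peaks was not taken under these rules, so neither value can be set beside the list as a whole. All 3 own peaks were shared. In the opposite direction 17 of 47 were shared (36.2%, interval 22.7 to 51.5%), against 26.3% of all 50 µL peaks, and of the 17 own peaks 3 were. The shared own peaks were the Tfrc promoter, Klf1 exon 2 and Ermap intron 8.

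Gata1 and Alas2 are on the X chromosome, and the promoters of their neighbours were near the bottom of the list without gradient centrifugation and near the top of the 50 µL list. The 50 µL list is longer, and shared peaks on autosomes moved either way between the lists. Gcdh stood at percentile 87.2 without gradient centrifugation and 97.4 in the 50 µL library, and the nearer site downstream of Tfrc at 94 and 88.1. The part of list length in these percentiles was not tested. Hdac6 stood at percentile 2.47 without gradient centrifugation and 99.9 in the 50 µL library, and the Apex2 and Pfkfb1 promoter at 2.44 and 89.7. Over the whole chromosome, X promoter peaks had a median percentile of 43.5 without gradient centrifugation against 60.8 for autosomes, and 77.6 against 69.5 in the 50 µL library. A promoter peak was present for 24.5% of X-linked and 44.9% of autosomal protein-coding genes without gradient centrifugation, and for 38.8% and 57.8% in the 50 µL library. The part of X copy number in these values was not tested, since no source used here gives the sex of the animals of each library.

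Most of the 9 promoters were poor in CpG. The ratio of observed to expected CpG within 500 bp of the main TSS had a median of 0.229 over the members and 0.571 over 21911 protein-coding genes with a value. Klf1 (0.0783) and Rhag (0.0363) were in the lowest decile, where 3.97% of genes had a promoter peak without gradient centrifugation and 8.49% in the 50 µL library. Alas2 (0.149) and Slc4a1 (0.178) were in the second, Gata1 (0.229) in the third, and Epor (0.282) and Ermap (0.291) in the fourth. Only Tal1 (0.804) and Tfrc (0.893) were CpG-rich, in deciles 8 and 10. Of genes in these deciles, 71.7% and 74.7% had a promoter peak without gradient centrifugation, and 83.6% and 89.1% in the 50 µL library. Tfrc had one in both. Tal1 had none without gradient centrifugation and its 50 µL promoter peak was among the weakest of the list. Conversely, Slc4a1 had a peak on its TSS in the 50 µL library, in a decile where 18.9% of genes had a promoter peak.

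**Figure D4:**
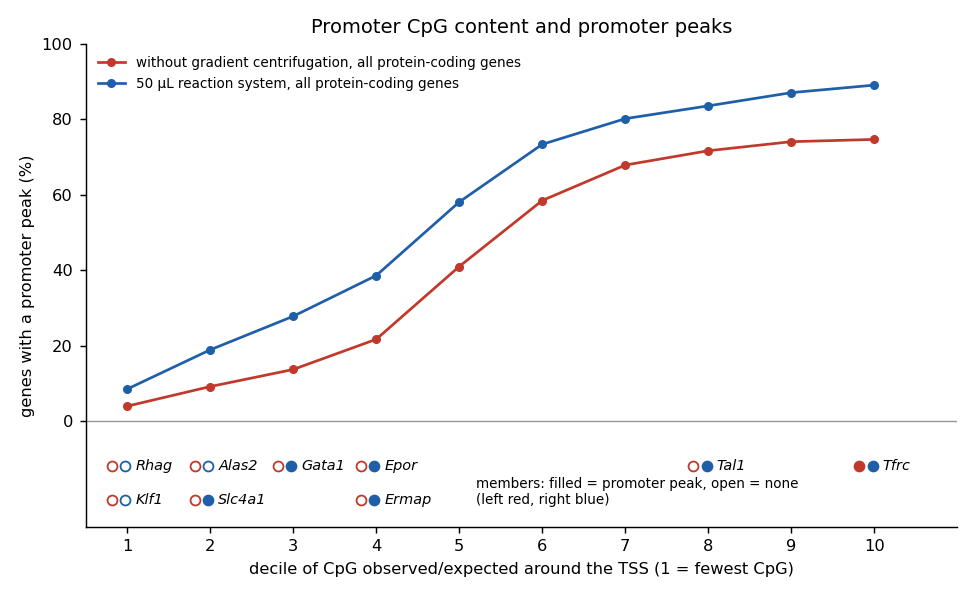
Share of all protein-coding genes with a promoter peak (y axis, percent) in each decile of CpG observed over expected around the main TSS (x axis), without gradient centrifugation in red and in the 50 µL library in blue. The 9 genes are placed under their deciles, with filled circles where they had a promoter peak and open circles where they had none. The lines climb from 3.97% to 74.7% and from 8.49% to 89.1%, and 7 of the 9 genes lie in the 4 lowest deciles.

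GATA words were found at 4 of the 9 own promoter peaks of the 50 µL library (44.4%, interval 13.7 to 78.8%), which belong to Slc4a1, Gata1, Tfrc (intron 9) and Ermap, against 19.5% of all its promoter peaks, a share inside the interval. Away from all promoters they were found at 5 of 20 (25%) against 29.7%. KLF words were found at 6 of the 9 promoter peaks (66.7%, interval 29.9 to 92.5%) against 43.1%. Over all 47 peaks, GATA words were found at 23.4%, against 27.1% of the whole list. Over the 19 peaks without gradient centrifugation they were found at 1 (5.26%, interval 0.133 to 26%). The share over all peaks of that list, 20.6%, is inside the interval. Of the 19, 1 lay at an own promoter and 12 at promoters of other genes. Among all promoter peaks of that list the share was 14.2%. The words for PU.1 (GAGGAAGT), RUNX (TGTGGT) and NF-E2 (TGAGTCA) were found at 3, 5 and 2 of the 47 peaks, against 3.8%, 18.4% and 3.38% of the whole list.

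The CTCF core, which was added to the search after the sequences had been read, stood at 3 of the 6 peaks away from promoters without gradient centrifugation (Klf1 exon 2, the nearer site downstream of Tfrc and the shared site downstream of Ermap) and at the same 3 sites in the 50 µL library. It was found at 1.98% of all peaks away from promoters without gradient centrifugation and at 0.587% of those in the 50 µL library. CTCF is the factor that bounds chromatin loops. These sites were picked for their sequence, so the counts are a description.

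The GATA and E-box composite (CTG, 8 or 9 bases, GATAA) was counted under the peaks of the 9 windows and in promoter sequences of the members. It was found at 1 of the 47 peaks of the 50 µL library (2.13%, interval 0.0539 to 11.3%), against 1.06% of the whole list. Without gradient centrifugation it was found at 0 of 19 peaks, against 0.793%. RefSeq promoters (250 bases before to 50 after a start, GRCm38.p6) were at hand for 8 of the 9 genes. Composites were found in those of Klf1, Rhag and Ermap, which is 3 of 8 genes, against 1.46% of 32851 promoter sequences. The members are counted here by gene and the background by sequence, and Tal1 and Tfrc have more than 1 sequence each. Single GATA words, which the composites shown here contain, were found in 6 of 8 (Alas2, Epor, Ermap, Klf1, Rhag and Tal1), against 29.8%. The 3 composites are shown on the strand of the gene with 5 bases on each side and with the GATA and CTG parts in capitals.
Klf1 promoter, chr8:84901897-84901922, plus strand: gggtcTTATCagggaagaCAGccaat
Rhag promoter, chr17:40811113-40811139, plus strand: tgctcTTATCaacactataCAGcctgt
Ermap promoter, chr4:119190041-119190067, minus strand: tcgctTTATCaggggtgggCAGacagg
Counted from the RefSeq starts, their first bases lie at -80, -31 and -67, in the same orientation in all 3. These starts differ from the main TSSs of GENCODE used elsewhere, and the Rhag composite lies over the main TSS of Rhag at 40811126. No peak covered any of the 3 composites. The nearest 50 µL peak was 1264 bp away for Klf1, 4023 bp for Rhag and 1189 bp for Ermap.

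Genes that work with the 9 members were counted in the same way. Of 17 partner regulators, 11 had a promoter peak without gradient centrifugation and 15 in the 50 µL library (background 43.6% and 56.5%). They included Gfi1b, a repressor that GATA1 induces (fold enrichments 5.76 and 6.55), and Zfpm1, the GATA1 cofactor FOG1, with a peak at an internal TSS (8.37 and 8.48). For Runx1 the most significant promoter peaks were at different sites. That without gradient centrifugation was at -115 bp from the main TSS (5.36) and that of the 50 µL library at 128624 bp (4.01). Gata2 and Lyl1 had none in either list. Of 11 genes of erythropoietin receptor signalling, 9 and 10 had one, among them the STAT genes Stat5a (5.26 and 5.78) and Stat5b (4.97 and 3.19), the STAT5 target Cish (5.59 and 5.33) and the survival gene Bcl2l1 (5.24 and 5.85). The Stat5b values come from different sites, at 3 bp from the main TSS without gradient centrifugation and at 28010 bp in the 50 µL library. Kit had none. Epor itself had its promoter peak in the 50 µL library only, as did Socs3 (3.69). Exact intervals of the shares were 38.3 to 85.8% and 63.6 to 98.5% for the partners, and 48.2 to 97.7% and 58.7 to 99.8% for signalling. Only the first of these holds the background. In the equally long 50 µL list they were 44 to 89.7% and 30.8 to 89.1%, and both hold its background of 45.2%. Median CpG ratios were 0.786 and 0.762, against 0.571 over all genes. The part of CpG in these counts was not tested.

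Of 8 further genes of haem synthesis counted here, 7 and 8 had a promoter peak (background 43.6% and 56.5%), while Alas2 had none in either. Alas2 is in the second decile of CpG, where 9.17% and 18.9% of genes had one. Of the 8 genes, 1 is in the 5 deciles poorest in CpG. The highest fold enrichments without gradient centrifugation were those of Ppox (8.48 and 5.00), Urod (7.22 and 5.87) and Slc25a38, the mitochondrial glycine carrier (6.32 and 4.94). Alas1, the housekeeping form of the Alas2 enzyme, had 7.0 and 5.86. Of 10 genes of iron handling, 6 and 9 had one (60% and 90%, against the same background), among them Ireb2 (5.83 and 6.46) and Fth1 (5.27 and 4.35). Both intervals of the iron shares, 26.2 to 87.8% and 55.5 to 99.7%, hold the background. Tfr2, the second transferrin receptor, had a 50 µL peak at its TSS (5.80) and none without gradient centrifugation. Slc25a37, the mitochondrial iron carrier of red cell precursors, had none in either list.

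Of 13 other genes of the red cell membrane and skeleton counted here, 3 had a promoter peak without gradient centrifugation (interval of the share 5.04 to 53.8%), and 9 had one in the 50 µL library (interval 38.6 to 90.9%). Both intervals hold the share of all protein-coding genes, which was 43.6% and 56.5%. The 3 were Epb41 (5.14), Dmtn (4.79) and Cd47 (2.86). In the 50 µL library, the most significant were Epb41 (4.22), Gypc (3.75) and Dmtn (6.30). The Epb41 values come from different sites, at -3361 bp from the main TSS without gradient centrifugation and at 23531 bp in the 50 µL library. So do those of Dmtn, at 514 and 11945 bp. Epb42 (3.15) and Kel (3.11), which are largely specific to red cells, were in the 50 µL list only, and so were Slc4a1 and Ermap among the members. In the equally long 50 µL list the count fell to 5. Of 14 paralogues of the members, 6 and 9 had a promoter peak (42.9% and 64.3%), close to the shares of all genes. Rhcg, a Rhag relative of kidney, had peaks at an internal TSS (4.52 and 3.23), while Slc4a2, the widely expressed anion exchanger, had 7.61 and 4.56.

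**Figure D5:**
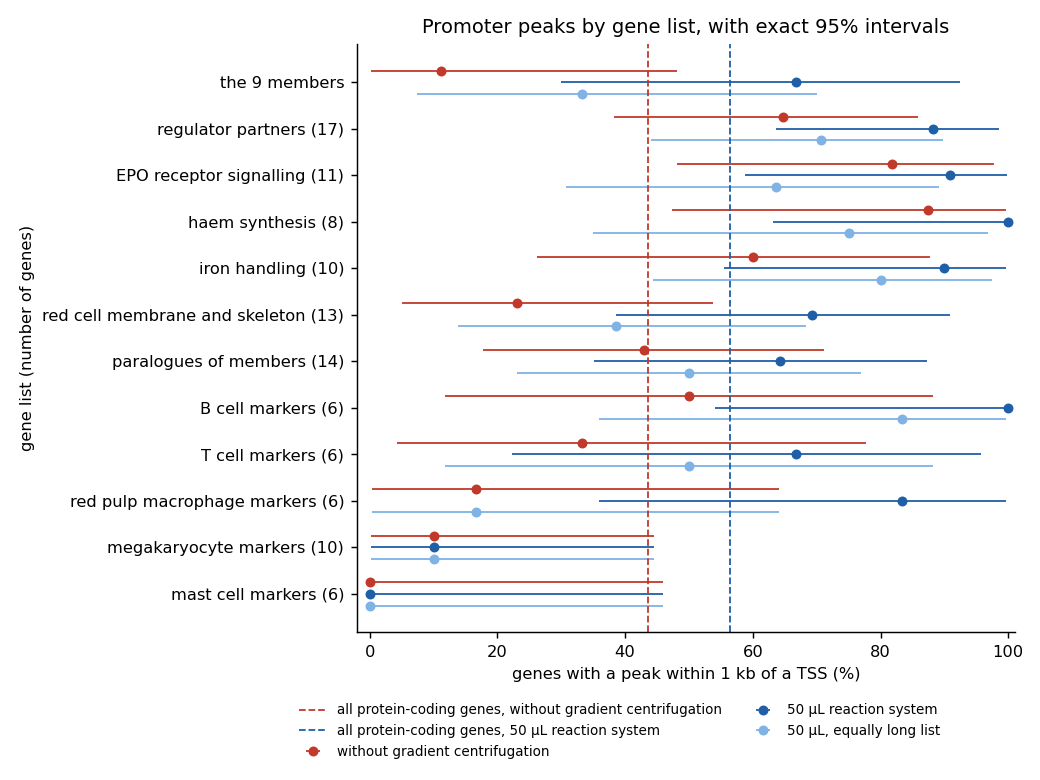
Percentage of genes in a list that had a promoter peak (x axis) for the members and 11 other lists (y axis, with gene numbers), without gradient centrifugation (red), in the 50 µL library (dark blue) and in its equally long list (light blue), with exact 95% intervals. Dashed lines mark all protein-coding genes at 43.6% and 56.5%. The 9 genes sit at 11.1%, 66.7% and 33.3%. The lists of regulator partners, signalling, haem synthesis and iron handling lie to the right of the dashed lines in all 3.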

How the data were processed

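The files were the peak lists of 2 scFFPE-ATAC libraries of mouse spleen, 1 a group. By the methods, alignment to mm10 used BWA, and after removal of duplicates the authors called peaks per library with MACS2 at a q-value of 0.01 and left out blacklisted regions. The fold enrichment deposited for each peak is the ratio of its summit to the local background, and the deposited −log10 p and −log10 q values and the integer score are those of the peak caller. The score was not used. The lists hold no reads or cells, so the precision set by depth is unknown, and Tn5 offset and duplicates cannot be checked.

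Peaks were assigned with Python 3.11.15 to genes of GENCODE vM21 (21924 protein-coding symbols), with promoters as 1 kb on either side of any annotated TSS and windows of 20 kb around genes. The main transcript is the longest APPRIS principal one. Ranks follow −log10 q within each list. Sequences came from GRCm38.p6, and no peak on a chromosome of that assembly ran past its end. Intervals are exact (Clopper-Pearson, 95%, scipy 1.17.1). Code was tested on simulated peaks and sequences. No tests between libraries were made.

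The members, gene lists and motifs were chosen with earlier results of these data known, and the CTCF word after the sequences had been read. Named genes are the members, genes whose promoters or bodies hold peaks of their windows, and pathway genes with a promoter peak without gradient centrifugation or among the 3 most significant in the 50 µL library. Pathway genes and markers named as lacking a peak, or as having it in the 50 µL library only, were chosen after their values were seen. Some genes of the lists of haem synthesis, red cell membrane and red cell markers are not reported here and were left out of the counts after these had been seen, which moves the shares of those lists.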

Additional observations from a re-analysis of the deposited data

How the results depend on the processing

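Without gradient centrifugation, the number of members with a promoter peak went from 1 to 2 with promoters of 2000 bp on each side. In the 50 µL library it went from 6 to 3 with a fold enrichment of at least 4 and to 3 with the equally long list. With the TSS of the main transcript alone, an alternative chosen after seeing the data, it was 1 without gradient centrifugation and 4 in the 50 µL library, and 4 members had one in the 50 µL library with the 5' end of the gene record alone. The 19 peaks without gradient centrifugation became 7 with flanks of 5 kb, 35 with 50 kb, and 7 without promoters of other genes. The 47 peaks of the 50 µL library became 23 with 5 kb, 30 with 10 kb, 87 with 50 kb, 29 without promoters of other genes, 16 with a fold enrichment of at least 4 and 17 with the equally long list. The shared part of 94.7% was 42.1% with a reciprocal overlap of 50% and 66.7% with a fold enrichment of at least 4 in both lists. The share of peaks with a GATA word went from 5.26% to 0% in a window of 100 bp without gradient centrifugation, and from 23.4% to 42.6% over whole peaks in the 50 µL library. The other alternatives moved counts by at most 1.5 times and shares within their intervals. The widening to whole peaks searches more bases, and the shorter lists hold fewer peaks by construction. No paired analysis was possible because each group has 1 library, which also leaves no replicate to leave out. No read depth is known, so a missing peak shows only that no peak was called.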

Other observations

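In the 20 to 50 kb beyond the genes, Klf1, Tal1, Tfrc, Alas2 and Ermap had peaks away from promoters that were seen in the 50 µL library only. For Tfrc they lay at -36.1, -33.9 and 57.2 kb from the main TSS (fold enrichments 5.27, 3.92 and 2.48). Those of Ermap lay at 49.6 and 64.3 kb (5.03 and 2.38), and that of Klf1 at 42.8 kb (3.06). Alas2 had 2 such peaks upstream, at -36.4 and -35.9 kb from its main TSS, with fold enrichments of 3.91 and 3.49. Tal1 had 4 such peaks, 2 upstream at -45 and -25.9 kb (3.18 and 3.15) and the 2 downstream at 39.4 and 40.3 kb. Slc4a1, whose 20 kb window was empty without gradient centrifugation, had a shared peak away from promoters at -46.7 kb, with fold enrichments of 5.26 without gradient centrifugation and 5.68 in the 50 µL library. Around Rhag, the list without gradient centrifugation held no peak within 50 kb, and the 50 µL list added only a promoter of another gene at 69.6 kb from the Rhag TSS (5.11).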
